A study of Mus musculus with 6 samples.

Results

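The natriuretic peptide genes of the mouse heart are described here together with the genes that process, bind and remove the peptides. The 8 genes are *Nppa* and *Nppb*, which encode the peptides ANP and BNP, the proteases *Corin* and *Furin*, the receptors *Npr1*, *Npr2* and *Npr3*, and the peptidase *Mme*. They were found by gene symbol among the 16018 genes of the deposited table, and all 8 had a row. The set was selected on biology and on the difference between knockout and wild-type hearts in these same libraries, so that difference is given as a description and with no test of its own.

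RNAseq was performed on hearts of 3 female NBCe1-B/C knockout mice (KOb/c) and 3 female wild-type (WT) mice, 1 library per mouse, between 4 and 5 weeks of age. Both groups had the C57BL/6J background. The KOb/c mice lack the B and C variants of NBCe1, the sodium bicarbonate cotransporter encoded by *Slc4a4*, in every cell of the body, and keep the kidney variant NBCe1-A. Because the loss is global and congenital, effects within heart cells and effects of other organs cannot be told apart in these animals. The values are normalized counts, that is, reads per gene divided by 1 factor per library.

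ANP and BNP are hormones that heart muscle cells release when the chamber wall is stretched, and both lower blood pressure and promote the loss of salt and water. In the healthy adult heart *Nppa* is expressed mainly in the atria, whereas *Nppb* is expressed in atria and ventricles and is used as a marker of ventricular load. Corin and furin cut the precursors to the active peptides. NPR1, the receptor of ANP and BNP, and NPR2, the receptor of the related peptide CNP, make cyclic GMP, while NPR3 takes the peptides up for removal and the peptidase neprilysin, encoded by *Mme*, degrades them.

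The 2 peptide genes are neighbours on chromosome 4 in the GRCm38 build. *Nppb* (ENSMUSG00000029019, chr4:147985788-147987205) and *Nppa* (ENSMUSG00000041616, chr4:148000722-148002079) lie on the plus strand with 14.9 kb between their annotated starts. The bases before each start are shown as a description, and any link to the levels below was not tested. These bases come from RefSeq windows (GRCm38.p6) of 250 bases before and 50 after each start, written 5′ to 3′ on the gene's strand. Capitals mark GATA on either strand (read as TATC on the other), the letters bound by GATA4 and its relatives. They also mark CATTCC on either strand (GGAATG on the other), the core of the element bound by TEAD factors, AAGTG on either strand (CACTT on the other), the core bound by NKX2-5, and TATAAA on the gene's strand. The first stretch is the 150 bases before the start of *Nppa* (chr4:148000572-148000721). The others are 30-base stretches of *Nppb*, at chr4:147985791-147985820 and chr4:147985858-147985887.
Nppa: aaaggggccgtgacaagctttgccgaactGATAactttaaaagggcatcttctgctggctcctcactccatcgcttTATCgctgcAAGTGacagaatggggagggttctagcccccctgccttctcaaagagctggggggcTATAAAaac
Nppb: ggcaGGAATGcagctGATAaatcagaGATA
Nppb: ctcagccccagTATAAAaggcagaggcacc

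The *Nppb* window held GGAATG 105 bases before the start, GATA at 94 and 83 bases and TATAAA at 31 bases before it. The *Nppa* window held GATA at 121 bases, TATC at 74 bases, AAGTG at 239 and 65 bases and TATAAA at 9 bases before the start. No match overlapped another. CATTCC was matched near *Nppb* and not near *Nppa*, and AAGTG near *Nppa* and not near *Nppb*. Of the 32851 windows of all genes, 57.9% held GATA, 46.4% AAGTG, 14.7% CATTCC and 8.3% TATAAA, so that GATA and AAGTG are common letters at this length. Over the 8 genes, which have 11 windows, GATA was present for 5 genes, TATAAA for 3, and AAGTG and CATTCC for 2 each. A match is a description of the letters, not a site. The annotations place the start of *Nppb* differently: GENCODE M21 has it 112 bases before RefSeq, and there both *Nppb* stretches fall within the first exon.

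Several facts of the libraries touch the results. Reads on genes ran from 42619258 to 49100802 in KOb/c and from 41364857 to 42037397 in WT libraries. The targeted gene *Slc4a4* (chr5:88886818-89239653) was listed at 264, 945 and 269 normalized counts in KOb/c replicates 1, 2 and 3 and at 675, 822 and 789 in the WT replicates. The library labelled KOb/c replicate 2 thus lay above all WT libraries and goes against its label for this gene, and results are also given without it. Counts over *Slc4a4* do not separate its variants. The 4 ventricular markers listed marked all libraries as heart, with *Myl2*, the ventricular myosin light chain, between 213888 and 260779 normalized counts. The summed level of 9 atrial markers differed several-fold between libraries and was lowest in KOb/c replicate 1 and WT replicate 1. These are called the low-atrial libraries below. The name rests mainly on *Myl7*, *Myl4*, *Sln*, *Dkk3* and *Stard10*. *Kcnj3*, *Nr2f1*, *Nr2f2* and *Bmp10* followed this pattern less closely or not at all.

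*Nppb* was the member that differed most between the genotypes. It was listed at 1145, 2338 and 1010 normalized counts in KOb/c replicates 1, 2 and 3 and at 4452, 3809 and 3545 in WT replicates 1, 2 and 3. The groups did not overlap, and the highest KOb/c library was the one whose *Slc4a4* level was that of WT. The means were 1498 ± 731 in KOb/c and 3935 ± 467 in WT (SD, n = 3 each), a level in KOb/c of 38.1% of WT. On the log2(normalized count + 1) scale the difference was -1.49 (SE 0.27), and 23 of the 16016 genes tested, *Nppb* included, had a difference as low or lower. With 1 library left out it ran from -1.86 without KOb/c replicate 2 to -1.26 without KOb/c replicate 3, and it was -1.32 once trends with the length and GC content of transcripts had been subtracted. Counting error was at most 2.96% of a library's value for this gene, which is far below the spread among the KOb/c libraries.

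*Nppa*, the precursor of ANP, gave another picture. It was listed at 8086, 41543 and 48535 normalized counts in KOb/c replicates 1, 2 and 3 and at 10666, 47073 and 61038 in WT replicates 1, 2 and 3. The groups overlapped, with 1 low library and 2 high libraries in each, and the highest library held 7.55 times the level of the lowest. The means were 32722 ± 21619 in KOb/c and 39592 ± 26006 in WT (SD, n = 3 each). The log2 difference of -0.30 (SE 0.78) was smaller than its error, and it ran from -1.08 without WT replicate 1 to 0.52 without KOb/c replicate 1. A difference of *Nppa* between the genotypes was therefore not detectable with these libraries, and neither was its direction.

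**Figure D1:**
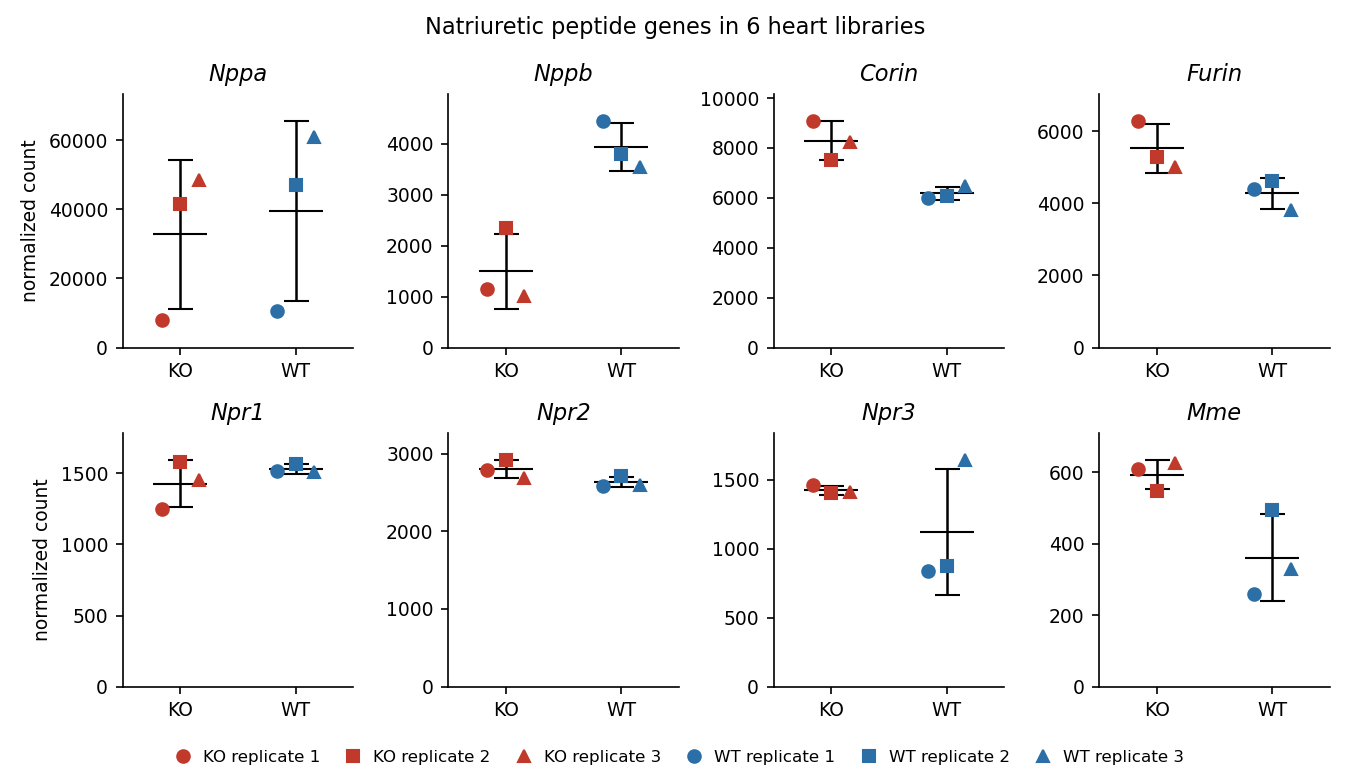
Normalized counts of the 8 genes (vertical axes, each starting at 0) in the KOb/c (red, labelled KO) and WT (blue) libraries, 1 point per mouse, with the symbol giving the replicate number and the black bars the mean and SD of 3 libraries. The groups are apart for Nppb, Corin, Furin and Mme and overlap for Nppa, Npr1, Npr2 and Npr3, where Nppa has 1 low library in each group.

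The proteases that make the active peptides were both listed higher in KOb/c. *Corin* (ENSMUSG00000005220, chr5:72300025-72504473), the membrane protease of heart muscle cells that cuts pro-ANP, was at 9092, 7533 and 8236 normalized counts in KOb/c and at 5994, 6064 and 6483 in WT. All KOb/c libraries lay above all WT libraries. The means were 8287 ± 781 and 6180 ± 264 (SD, n = 3 each), a ratio of 1.34 and a log2 difference of 0.42 (SE 0.08). It ran from 0.35 to 0.49 with 1 library left out and was 0.32 after the correction for length and GC content. *Furin* (ENSMUSG00000030530, chr7:80388585-80405436), a general convertase that cuts pro-BNP among many other precursors, was at 6286, 5277 and 5004 in KOb/c and at 4398, 4628 and 3806 in WT. Here too the groups did not overlap. The gap between the lowest KOb/c and the highest WT library was small, and the means of 5522 ± 676 and 4277 ± 424 differed by 0.37 on the log2 scale (SE 0.10), or by 0.25 after the correction for length and GC content. Within each group *Furin* varied by up to 1.26-fold and *Corin* by up to 1.21-fold, against 2.32-fold for *Nppb* among the KOb/c libraries.

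Of the receptors, those that make cyclic GMP differed least. *Npr1* (ENSMUSG00000027931, chr3:90450591-90465866) was at 1249, 1583 and 1453 normalized counts in KOb/c and at 1516, 1569 and 1510 in WT. The WT libraries lay within the range of the KOb/c libraries, of which replicate 1 was the lowest of all 6 and replicate 2 the highest. The log2 difference was -0.11 (SE 0.09) and ran from -0.18 without KOb/c replicate 2 to -0.01 without KOb/c replicate 1. *Npr2* (ENSMUSG00000028469, chr4:43631935-43651244) was the most even member, at 2792, 2920 and 2685 in KOb/c and 2587, 2705 and 2601 in WT. The highest library held 1.13 times the lowest, and the log2 difference was 0.09 (SE 0.06) with groups that overlapped. An antisense gene, *Gm12473*, overlaps *Npr2* with a mean of 194 normalized counts, and reads of the 2 cannot be told apart unless the counting used strand, which is not given in the sources used here.

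The removal side varied more. *Npr3* (ENSMUSG00000022206, chr15:11839896-11907287), the clearance receptor, was at 1462, 1404 and 1410 normalized counts in KOb/c and at 842, 876 and 1646 in WT. The KOb/c libraries were nearly level, whereas WT replicate 3 was the highest of all 6 and the other WT libraries the lowest, so that the groups overlapped. The means were 1425 ± 31.9 and 1121 ± 454 (SD, n = 3 each), with a log2 difference of 0.42 (SE 0.22). Leaving out WT replicate 3 gave the upper end of the range over single libraries left out, 0.73, and the lower end was 0.25. Per kb of exon, *Npr3* stood to *Npr1* at 0.596, 0.452 and 0.495 in KOb/c and at 0.283, 0.285 and 0.555 in WT, which again sets WT replicate 3 beside the KOb/c libraries.

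*Mme* (ENSMUSG00000027820, chr3:63241537-63386030), the lowest of the 8 genes, was listed at 610, 547 and 625 normalized counts in KOb/c and at 259, 495 and 331 in WT. The groups did not overlap, although WT replicate 2 came near the lowest KOb/c library. The means of 594 ± 41.6 and 362 ± 121 (SD, n = 3 each) gave a ratio of 1.64 and a log2 difference of 0.76 (SE 0.21). It ran from 0.55 without WT replicate 1 to 1.02 without WT replicate 2, and was 0.58 after the correction for length and GC content. Counting error reached 6.29% in the library with the fewest reads for this gene.

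Across the 8 genes, the KOb/c libraries were lower for *Nppb* and higher for *Corin*, *Furin* and *Mme* with no overlap between groups, which is 4 of 8 genes (1 lower, 3 higher). Over all genes tested the same was true of 30.2%, with 15.6% higher and 14.6% lower in KOb/c. With limma 0 of 8 genes passed an adjusted p of 0.05, and 0 of 16016 genes (0.0%) did, while 4 of the 8 and 3764 of all genes had an unadjusted p under 0.05. The edgeR test on the recovered reads called 0 genes as well, with 3837 at an unadjusted p under 0.05. DESeq2 on the same reads called *Nppb* lower and *Corin*, *Furin* and *Mme* higher, where it called 13.2% of 11979 genes. Since the 8 genes were chosen with this contrast known, nothing is read from these counts. Without the library labelled KOb/c replicate 2, limma called 3 genes, *Nppb*, *Slc4a4* and *Doc2g*, all lower in KOb/c, and the log2 difference of *Nppb* was then -1.86. That library was set aside for its *Slc4a4* level and was also the highest KOb/c library for *Nppb*, so these calls use the values that chose the library and the gene, and nothing is read from them either. The other members were then at 0.49 (*Corin*), 0.40 (*Furin*), 0.82 (*Mme*), 0.43 (*Npr3*), 0.06 (*Npr2*), -0.18 (*Npr1*) and -0.66 (*Nppa*).

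Levels of different genes were compared per kb of exon. In this unit the median over 6 libraries was 51220 normalized counts per kb for *Nppa*, 3766 for *Nppb*, 1298 for *Corin*, 578 for *Npr2*, 525 for *Furin*, 316 for *Npr1*, 150 for *Npr3* and 45.1 for *Mme*. The ranges of neighbours in this order did not overlap, except that *Corin* overlapped *Nppb* and *Furin* overlapped *Npr2*. The overlap of *Corin* with *Nppb* lay in KOb/c: *Nppb* per kb was 1466 and 1293 in replicates 1 and 3, where *Corin* was 1684 and 1525, whereas in WT *Nppb* per kb was between 4539 and 5701 and *Corin* at most 1201. *Nppa* thus stood above all other members in every library, the low-*Nppa* ones included.

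**Figure D2:**
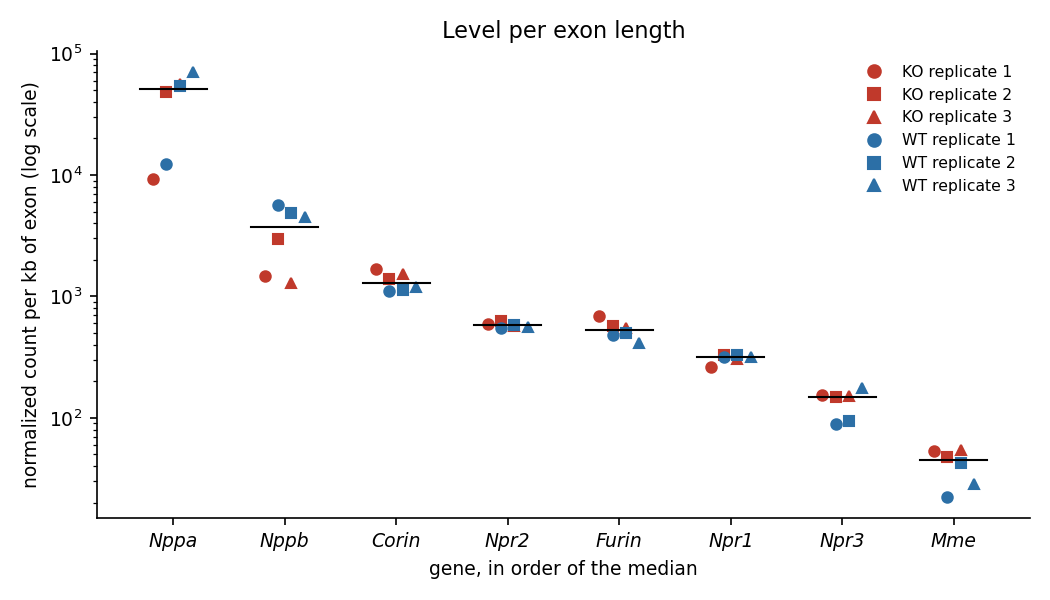
Level of each gene in normalized counts per kb of exon (vertical axis, log scale), 1 point per library and a black line at the median of 6, with genes ordered by that median. Nppa lies between 9349 and 70560, above all other genes, and Mme between 22.5 and 54.2, below them.

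The peptide genes were then compared with each other and with *Slc4a4* library by library. *Nppb* stood at 29.1%, 59.4% and 25.7% of the WT mean in KOb/c replicates 1, 2 and 3 and at 113%, 96.8% and 90.1% in the WT replicates. *Slc4a4* stood at 34.6%, 124% and 35.3% in KOb/c and at 88.6%, 108% and 103.5% in WT. KOb/c replicate 2 was the highest KOb/c library for both genes, but *Slc4a4* was there above every WT library whereas *Nppb* was below every WT library. Within WT the orders differed: replicate 1 was the lowest for *Slc4a4* and the highest for *Nppb*. *Nppb* divided by *Slc4a4* was 4.34, 2.48 and 3.76 in KOb/c and 6.60, 4.63 and 4.49 in WT.

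*Nppa* stood at 20.4%, 104.9% and 122.6% of the WT mean in KOb/c and at 26.9%, 118.9% and 154% in WT. It did not follow *Nppb*: WT replicate 1 was the highest of all libraries for *Nppb* and the second lowest for *Nppa*, and KOb/c replicate 3 was the lowest for *Nppb* and the second highest for *Nppa*. *Nppb* reads per 100 of *Nppa* were 14.2, 5.63 and 2.08 in KOb/c and 41.7, 8.09 and 5.81 in WT. The groups overlapped in this ratio, which spanned a wide range within each group. *Nppa* alone took between 0.0168% and 0.143% of all normalized counts of a library.

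**Figure D3:**
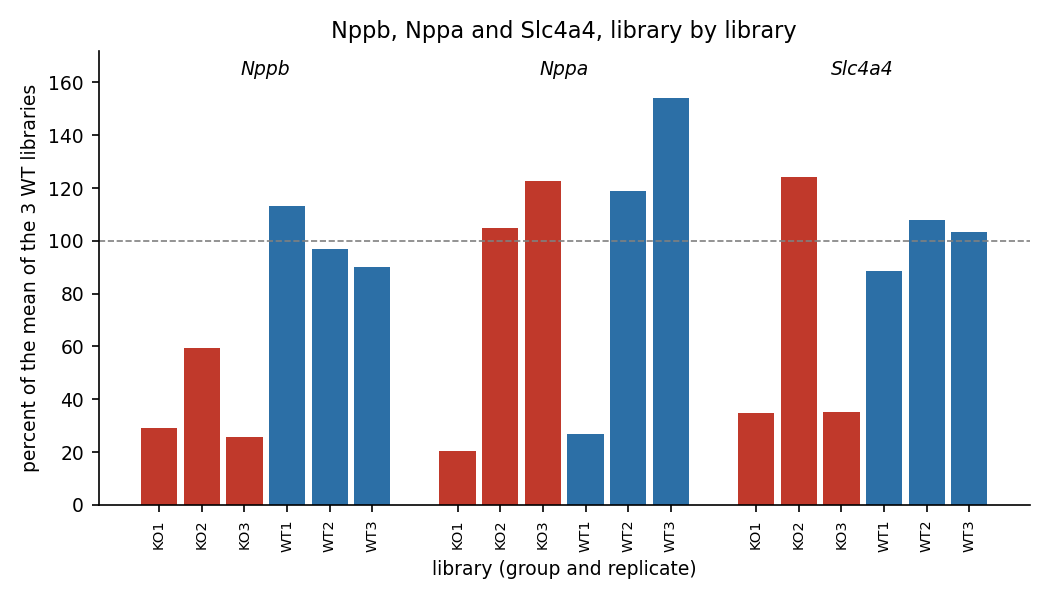
Nppb, Nppa and Slc4a4 in each library as a percentage of the mean of the 3 WT libraries (vertical axis; dashed line at 100%), with KOb/c libraries in red (labelled KO) and WT in blue. Nppb is below 60% in all KOb/c libraries, Nppa is low in KO1 and WT1, and Slc4a4 is low in KO1 and KO3 only.

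The level of *Nppa* moved closely with that of some atrial genes and less closely with that of others. All 9 markers of the atrial list had a row and none was at 0. The summed level of the list was 13374 to 50255 normalized counts in KOb/c and 20022 to 62513 in WT. Of the 9 markers 7 were lower and 2 higher in KOb/c, with a median log2 difference of -0.45 against -0.004 over all genes tested. This direction rested on 1 library, since the median was 0.15 without KOb/c replicate 1, -0.14 without WT replicate 3 and -0.89 without WT replicate 1. Of the 9, 0 passed the limma test (0 at an unadjusted p under 0.05, and 0 in edgeR and DESeq2), and the groups overlapped for each. The sum of *Myl7*, *Myl4* and *Sln*, atrial myosin light chains and sarcolipin, was 7343, 32397 and 39650 in KOb/c replicates 1, 2 and 3 and 14037, 40209 and 48081 in the WT replicates. *Nppa* divided by this sum was 1.10, 1.28 and 1.22 in KOb/c and 0.760, 1.17 and 1.27 in WT, a range far narrower than that of *Nppa* itself. *Dkk3* and *Stard10* were also lowest in KOb/c replicate 1 and next lowest in WT replicate 1. The other 4 markers followed *Nppa* less closely. *Kcnj3* and *Nr2f2* also had replicate 1 lowest in each group, but their highest library held only 1.80 and 1.47 times their lowest. *Kcnj3*, *Nr2f1* and *Nr2f2* stood at 108%, 66.4% and 99.97% of the WT mean in KOb/c replicate 1 and at 76.4%, 93.7% and 82.8% in WT replicate 1. *Bmp10*, a growth factor made by atrial muscle cells, was at 301, 68.2 and 247 in KOb/c and 18.4, 1245 and 2580 in WT.

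In bulk RNA, fewer atrial cells in a sample and less RNA per atrial cell cannot be told apart, and the part of atrial tissue in the *Nppa* values was not tested. With the median deviation of the atrial list as a covariate the log2 difference of *Nppa* was 0.36, and without both low-atrial libraries it was -0.26. Over the 6 libraries *Myl7*, *Myl4* and *Sln* of that list correlated with *Nppa* at Pearson's r of 0.976, 0.986 and 0.982. The covariate thus shares much of the spread of *Nppa* itself, and nothing is read from the adjusted value. For *Nppb* the difference was -1.48 with the covariate and -1.26 without both libraries. *Corin*, *Furin* and *Mme* were 0.40, 0.31 and 0.84 with the covariate and 0.33, 0.29 and 0.53 without both libraries.

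**Figure D4:**
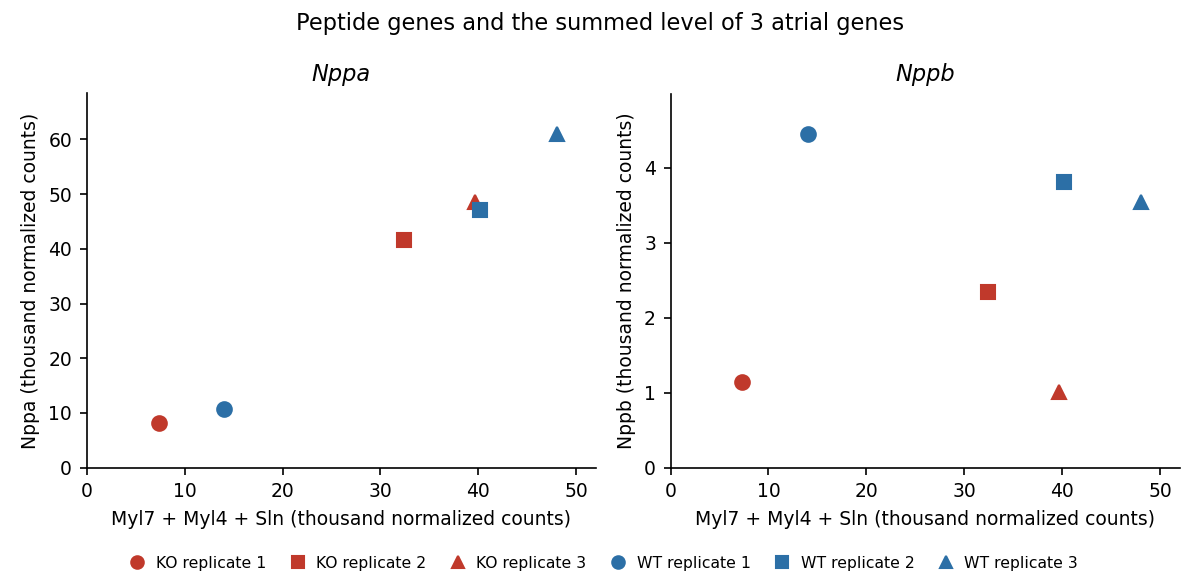
Nppa (left) and Nppb (right) against the summed level of the atrial genes Myl7, Myl4 and Sln, on axes that start at 0, with 1 point per library (KO stands for KOb/c). Nppa is low in the pair of libraries with a low atrial sum, 1 in each group, and high in the others, and Nppb is lower in the 3 KOb/c than in the 3 WT libraries.

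Genes whose levels went most closely with the peptide genes over the 6 libraries were named among 11931 genes by Pearson's r of log2 values. The 6 points share depth, genotype and atrial level, so r is a description. For *Nppb* the highest were *Mrpl54* (0.995), *Plekhh1* (0.995), *Ergic3* (0.991), *Syngr1* (0.985) and *Rchy1* (0.984), and the lowest *Rab14* (-0.990), *Wdr11* (-0.989), *Rb1* (-0.986), *Tiam1* (-0.985) and *Naaa* (-0.984). Their range was much smaller than that of *Nppb*: *Mrpl54*, a protein of the mitochondrial ribosome, was at 855, 1022 and 833 in KOb/c and 1315, 1236 and 1210 in WT, a log2 difference of -0.48. For *Nppa* the highest were *Gm13054* (0.998), *Tmem163* (0.998), *Mybphl* (0.993), *Gng2* (0.993) and *Gadd45b* (0.992), and the lowest *Scarb1* (-0.982), *March3* (-0.978), *Pde12* (-0.972), *2310057M21Rik* (-0.971) and *Ckm* (-0.971). *Gm13054* is annotated antisense to *Nppa* and overlaps it, so that its reads and those of *Nppa* may not be separate. *Mybphl* encodes a myosin-binding protein known from the atria.

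Other genes of peptide removal and of the cyclic GMP pathway numbered 23, of which 21 were analysed here. The CNP gene *Nppc* and *Ostn*, whose product competes for NPR3, were not analysed here. In KOb/c 16 were higher and 5 lower, with a median log2 difference of 0.16. With limma 0 of 21 passed, the lowest adjusted p being 0.0815, and edgeR called 0, while 5 higher and 1 lower gene had an unadjusted p under 0.05. DESeq2 called *Pcsk6*, *Ide*, *Pde2a*, *Pde3a* and *Prkg1* higher and *Vasp* lower. DESeq2 called 13.2% of the 11979 genes given an adjusted p, and with limma 3764 of 16016 had an unadjusted p under 0.05. The groups did not overlap for the same 6 genes and for *Gnai2*, which was lower, or 33.3% of the list beside 30.2% of all genes. The median was 0.07 after the correction for length and GC content and 0.04 without both low-atrial libraries.

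*Pde3a*, the phosphodiesterase of heart muscle cells that cyclic GMP inhibits, was at 5098, 4196 and 4201 normalized counts in KOb/c and at 3147, 3094 and 2904 in WT, a log2 difference of 0.56 (SE 0.09) that was 0.31 after the correction for length and GC content. *Pde2a*, which cyclic GMP activates, was at 647, 563 and 568 in KOb/c and 385, 481 and 446 in WT (0.44, SE 0.11, and 0.42 corrected). In both genes every KOb/c library was above every WT library. *Pde5a* and *Pde9a* gave log2 differences of -0.06 (SE 0.11) and -0.07 (SE 0.13) with groups that overlapped. Of the 8 phosphodiesterase genes, 6 were higher and 2 lower.

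*Prkg1*, the cyclic GMP-dependent kinase, had means of 483 ± 65.8 in KOb/c and 348 ± 45.0 in WT (SD, n = 3 each), a log2 difference of 0.47 (SE 0.14), or 0.31 corrected. Its substrate *Vasp* had means of 1920 ± 192 and 2551 ± 382, a log2 difference of -0.40 (SE 0.11), or -0.20 without both low-atrial libraries. The groups were separate for both genes, in opposite directions. *Ide*, the insulin-degrading enzyme, which also cuts ANP, was at 5976, 4985 and 5585 in KOb/c and at 2758, 4554 and 4533 in WT, with a log2 difference of 0.52 (SE 0.18), or 0.22 without both low-atrial libraries. *Pcsk6*, a convertase that activates corin, had means of 4426 ± 385 and 3633 ± 373, a log2 difference of 0.29 (SE 0.09). The soluble guanylate cyclase genes *Gucy1a1* and *Gucy1b1*, the other source of cyclic GMP, differed by 0.04 (SE 0.19) and 0.02 (SE 0.09). *Gucy1a2*, which encodes another subunit, differed by 0.41 (SE 0.29), and the groups overlapped for each of these genes. Of the G proteins to which NPR3 couples, *Gnai2* differed by -0.17 (SE 0.10), or -0.06 corrected, and *Gnai1* by 0.12 (SE 0.10).

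**Figure D5:**
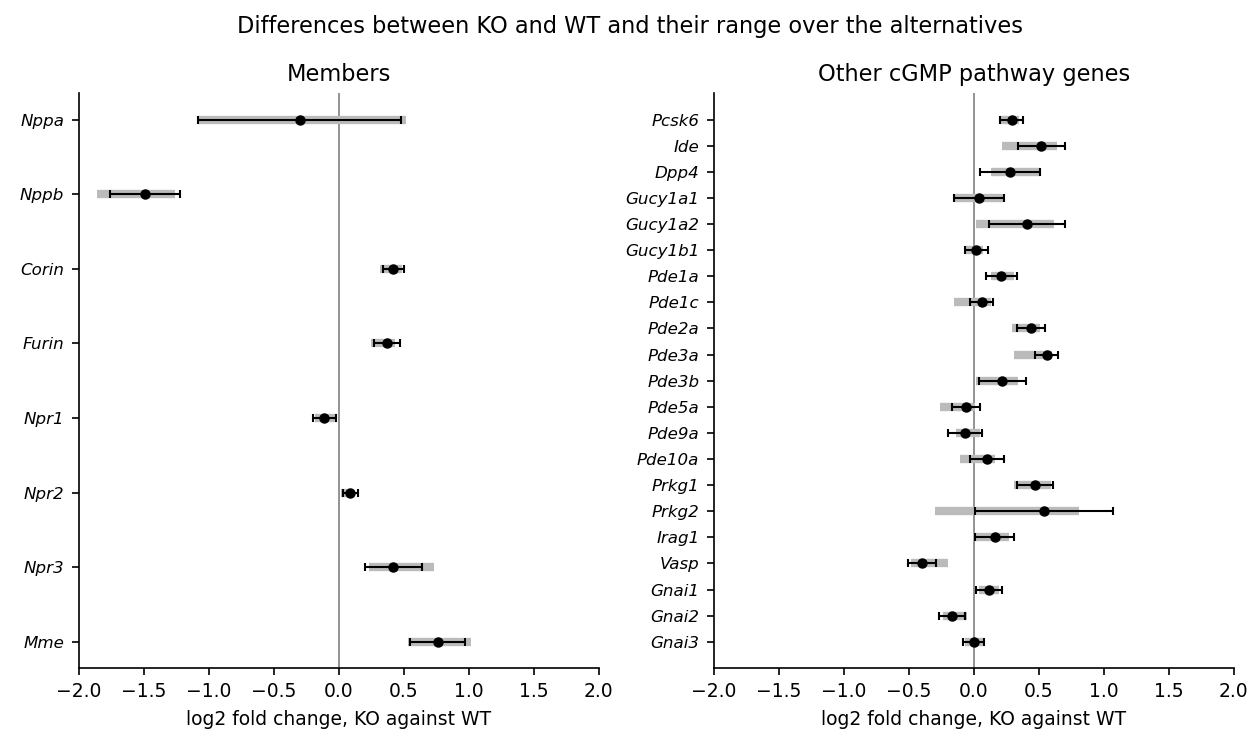
Log2 difference between KOb/c (labelled KO) and WT (horizontal axis) of the 8 genes (left) and of 21 other genes of the cyclic GMP pathway (right), with points and thin bars for the value and its SE and grey bars for the range over the 19 alternative analyses. The grey bar of Nppa spans 0, from -1.08 to 0.52, and that of Nppb runs from -1.86 to -1.26.

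Transcription factors known to act on the peptide genes, activators and repressors, were read beside them. Of 16 such genes 13 were higher and 3 lower in KOb/c, with a median log2 difference of 0.25. Over all genes tested 7879 were higher and 8137 lower, with a median of -0.004. These counts pool activators with repressors, which act in opposite directions. Of the repressors, *Tbx3* (0.20, SE 0.08), *Hey2* (0.23, SE 0.14) and *Tbx2* (-0.20, SE 0.09) had separate groups. The groups overlapped for the repressor *Rest* (0.28, SE 0.13). With limma 0 passed (7 higher and 1 lower at an unadjusted p under 0.05, beside 3764 of 16016 genes). The edgeR test called 0 and DESeq2 called 3 higher, where it called 13.2% of the 11979 genes given an adjusted p. The groups did not overlap for 8 higher and 1 lower gene, 56.2% of the list beside 30.2% of all genes. *Tead1*, the factor of the CATTCC element, was at 7966, 7374 and 6415 in KOb/c and 4697, 5779 and 5330 in WT, a log2 difference of 0.46 (SE 0.10) that was 0.22 after the correction for length and GC content. *Myocd*, a partner of SRF, differed by 0.44 (SE 0.09), *Tbx5* by 0.32 (SE 0.11) and *Mef2d* by 0.31 (SE 0.06). *Gata4* differed by 0.06 (SE 0.07) and *Nkx2-5* by -0.12 (SE 0.09), with groups that overlapped. The median of this list was 0.12 after the correction for length and GC content and 0.15 without KOb/c replicate 1.

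Genes known to respond to ventricular load, as *Nppb* does, were mixed. Of 8 genes 5 were higher and 3 lower in KOb/c, with a median log2 difference of 0.08. The 8 include *Myh6*, which is known to go down under load where the others go up, and it is counted here among the 5 higher. With limma 0 passed (3 higher and 1 lower at an unadjusted p under 0.05, beside 3764 of 16016 genes) and edgeR called 0. DESeq2 called *Myh6* and *Xirp2* higher, where it called 13.2% of the 11979 genes given an adjusted p. *Xirp2*, an actin-binding protein of the intercalated disc, was at 15893, 15696 and 11863 in KOb/c and 8690, 12228 and 9429 in WT (0.52, SE 0.15), with groups that overlapped. *Ankrd1*, the cardiac ankyrin repeat protein, was at 13177, 17440 and 12770 in KOb/c and 14109, 24777 and 24414 in WT (-0.51, SE 0.21). The skeletal actin gene *Acta1* was at 8384, 11603 and 5420 and at 3822, 6693 and 4708 (0.71, SE 0.27). The groups overlapped for both, and also for *Myh7*, the slow myosin heavy chain (0.14, SE 0.08). *Myh6*, the main myosin heavy chain of the mouse heart, was the 1 gene of this list with separate groups, with a log2 difference of 0.55 (SE 0.18) that was 0.16 under quantile normalization. Separate groups were thus found for 12.5% of the list beside 30.2% of all genes. The lowest log2 difference of this list was that of *Ankrd1*. Only 23 of the 16016 genes tested were as low as *Nppb*, which was chosen with its value known. Nothing is read from the lack of such a gene in this list.

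The genes next to *Nppb* and *Nppa* on chromosome 4 were listed to see whether the low level of *Nppb* extended along the region. Of 5 neighbours 3 were higher and 2 lower, with a median log2 difference of 0.14. The limma test called 0 (2 higher at an unadjusted p under 0.05, beside 3764 of 16016 genes). With edgeR 0 were called and with DESeq2 1, higher, beside 13.2% of the 11979 genes to which DESeq2 gave an adjusted p. *Mfn2*, a fusion protein of the mitochondrial outer membrane, differed by 0.30 (SE 0.08) and *Plod1*, a collagen-modifying enzyme, by 0.20 (SE 0.07), both with separate groups. *Clcn6* was at 623, 647 and 589 in KOb/c and at 496, 629 and 567 in WT. The log2 differences of the 5 ran from -0.08 to 0.30. Only 23 of the 16016 genes tested were as low as *Nppb*, which was chosen with its value known. That none of the 5 was as low therefore decides nothing.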

How the data were processed

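The deposited table holds a normalized signal per gene and library, which the authors made by dividing each library's read counts by 1 size factor; it is not scaled to length. The submitters' processing notes name Trimmomatic 0.36, STAR 2.5.2b, featureCounts of Subread 1.5.2, DESeq2 and the GRCm38 genome, and the strand setting is not given in the sources used here. Groups and replicate numbers came from the sample labels. In each library 100% of values were whole reads (tolerance 0.001) once multiplied by a divisor between 0.962 and 1.13.

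Symbols, positions and exon lengths were matched from GENCODE M21 for 15985 of 16018 genes. The contrast of KOb/c with WT was fitted in R 4.3.3 by limma 3.58.1, with its variance trend, to log2(normalized count + 1) of the 16016 genes whose mean was at least 10. Tests were two-sided and Benjamini-Hochberg adjusted. Fold changes on this scale understate those of low genes. Procedures were tested on simulated data. Alternatives were pseudocounts of 0.5 and 5, no filter or a minimum mean of 50, quantile normalization or equal totals per library, limma without the trend, a replicate block, each library left out, edgeR 4.0.16, DESeq2 1.42.0, and a correction by splines of 5 degrees of freedom in transcript length and GC content. An atrial covariate and the removal of both low-atrial libraries were added after seeing the data.

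The 8 genes and all lists (cyclic GMP pathway, transcription factors, ventricular stress, atrial, ventricular, endothelial, fibroblast, mural and noncardiac markers, and locus neighbours) were chosen with earlier results of these data known. Named were all members, *Slc4a4*, at most 4 genes per list with separate groups by size of the difference, genes needed to state a level or role, and the 5 highest and 5 lowest correlations with *Nppb* and *Nppa* among genes with a mean of at least 100. *Doc2g* and listed genes beyond these were named after their values were seen. Figures were drawn with matplotlib 3.10.9 (Python 3.11.15).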

Additional observations from a re-analysis of the deposited data

How the results depend on the processing

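Of the 8 genes, 7 kept the sign of their difference in all 19 alternatives. Among these, the difference of *Npr1* shrank to -0.01 without KOb/c replicate 1. That of *Npr2* moved from 0.09 to 0.02 with the same total per library. The sign of *Nppa* was kept in 16 and turned with the atrial covariate (0.36), without KOb/c replicate 1 (0.52) and without WT replicate 3 (0.18). The count of all genes past an adjusted p of 0.05 was 0, 1587 with DESeq2 and 0 to 3 with 1 library left out, the 3 without KOb/c replicate 2; for the cyclic GMP pathway it was 0, and 6 with DESeq2. The cause of the gap between the tests was not tested.

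Median log2 differences moved as follows, and the causes were not tested. With the length and GC correction they were 0.068 for the cyclic GMP pathway, 0.123 for transcription factors, 0.031 for ventricular, 0.092 for endothelial and -0.051 for mural markers, and 0.043 for locus neighbours. With the same total per library they were 0.175 for transcription factors, 0.107 for endothelial and 0.034 for mural markers, and 0.069 for locus neighbours. Without both low-atrial libraries, chosen after seeing the data, they were 0.043 for the pathway, 0.172 for transcription factors, 0.118 for endothelial markers and 0.048 for locus neighbours. With 1 library left out they ran from 0.154 to 0.279 for transcription factors, from 0.117 to 0.205 for endothelial and from -0.094 to 0.059 for fibroblast markers, and from 0.052 to 0.221 for locus neighbours. The lowest values were those without KOb/c replicate 1 for transcription factors and without WT replicate 1 for the other lists.

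The labels number replicates 1 to 3 in both groups. Deviations of same-numbered libraries correlated at 0.227, 0.072 and -0.029, and those of differently numbered libraries at -0.183 to 0.155. The labels do not say whether the numbers pair the mice, and these values cannot decide it. With a replicate block 0 genes passed and 3924 had an unadjusted p under 0.05, against 3764 without it. Each group held only 3 mice. Counting error was at most 6.29% of a library's value for the 8 genes. It reached 50% for *Prkg2*, a low gene of the cyclic GMP pathway list. How far depth and the spread between mice limit these values was not tested.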

Other observations

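Markers of the other cell types of the heart were listed beside the peptide genes, since *Npr1*, *Npr3* and *Mme* are also expressed outside muscle cells. Of 7 endothelial markers 6 were higher and 1 lower in KOb/c (median log2 difference 0.18), and the groups were separate for *Cdh5* (0.25, SE 0.07), *Nfatc1* (0.24, SE 0.08) and *Tek* (0.22, SE 0.06). Of 7 fibroblast markers 3 were higher and 4 lower (median -0.01), with separate groups for *Pdgfra* (0.49, SE 0.13), whose KOb/c libraries lay at 2800, 2683 and 2584 and WT libraries at 1520, 2274 and 2025 normalized counts. Of 5 mural cell markers 4 were higher and 1 lower (median 0.11), with separate groups for *Pdgfrb* (0.29, SE 0.07). Of 4 ventricular markers 1 was higher and 3 lower (median -0.10), with separate groups for *Myl3* (-0.23, SE 0.11), *Hey2* (0.23, SE 0.14) and *Myl2* (-0.18, SE 0.11). With limma 0 genes of these 4 lists passed and with edgeR 0. DESeq2 called 2 endothelial, 2 fibroblast and 1 mural gene higher and 1 fibroblast and 1 ventricular gene lower, and the numbers at an unadjusted p under 0.05 were 3 endothelial, 4 fibroblast, 1 mural and 0 ventricular. DESeq2 called 13.2% of the 11979 genes given an adjusted p, and the groups were separate for 30.2% of all genes. With limma 3764 of 16016 genes had an unadjusted p under 0.05. The part of these cell types in the values of the peptide genes was not tested.

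Of 10 markers of tissues outside the heart, 4 were analysed here. *Ucp1* and *Adipoq*, known from brown fat and from fat cells, were lowest in KOb/c replicate 1, at 17.9 and 15.9 normalized counts, and highest in KOb/c replicate 3, at 2948 and 569. The median over the 4 genes was a log2 difference of -0.71, but 0.38 without KOb/c replicate 1, -0.11 with DESeq2 and -0.01 without both low-atrial libraries, with 0 past the limma test and 0 at an unadjusted p under 0.05, and 0 with edgeR and DESeq2. WT replicate 1 was the next lowest for both, at 525 and 204, and the same pair of libraries was lowest for *Nppa*. The part of fat tissue in the *Nppa* values was not tested.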
